A study of Mus musculus with 6 samples.

Results

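Chromatin accessibility at the genes of the proteasome was compared between quadriceps femoris muscle of Prr14-KO mice and of Prr14-WT mice, by ATAC-seq, an assay whose transposase cuts and tags open DNA. Peaks were taken as members when the gene name given to them in the deposited table began with Psma, Psmb, Psmc, Psmd, Psme, Psmf or Psmg and a number. This gave 158 peaks of 47 genes among 75134 peaks in all, and 157 of the 158 had enough reads to be tested. The exception was an intronic peak of Psmc6. Psmc3ip and Psme3ip1, with 4 peaks together, match by spelling only: their names mean that the product interacts with a subunit.

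There were 3 KO libraries (replicates 4, 5 and 7) and 3 WT libraries (replicates 3, 4 and 8), made from nuclei of frozen muscle. No treatment was named, and the sources used here give neither age nor sex nor the deleted part of Prr14. PRR14 is a protein of the nuclear lamina that tethers heterochromatin, and the series title names myofibre identity and the transcription factor MEF2C. Whether the libraries are from different animals is not stated, so the p-values reflect only how these samples vary, which may be technical variation.

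The proteasome is the large protease that degrades proteins tagged with ubiquitin, and in muscle it carries out much of the protein loss of atrophy. Its barrel, the 20S core, is built from rings of alpha subunits (Psma genes), which form the gate, and rings of beta subunits (Psmb genes), which hold the cutting sites. The regulatory particle unfolds and feeds substrates with a ring of ATPases (Psmc genes) and a set of non-ATPase subunits (Psmd genes) that bind and remove ubiquitin. Activators (Psme genes) open the gate without it, and assembly chaperones (Psmg genes, Psmd5, Psmd9 and Psmd10) put the parts together. The subunit genes are housekeeping genes, and the factor NFE2L1 is known to raise many of them together through the antioxidant response element.

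That element and an interferon response element were looked for in RefSeq promoter windows of GRCm38.p6. Each window ran from 250 bases before to 50 bases after a start site. The first element is a known route by which many of these genes are raised together, and interferon is known to raise some of them. Windows were found for 43 of 51 gene symbols looked for, of which 41 were proteasome genes. The antioxidant response element, searched as TGACNNNGC on both strands, was found in 6 of these 41 genes (14.6%), against 14.8% of all protein-coding genes with a window and 16.9% of genes with a promoter peak. It is shown in capitals, on the strand where it was found, for the catalytic subunit genes Psmb5 and Psmb6 and the 4 other genes that had it; Psmb7, the remaining constitutive catalytic gene, had no window.
Psmb5 (chr14:54618025-54618051, minus strand): gtgaagttgTGACGTCGCggcgttgcc
Psmb6 (chr11:70525339-70525365, plus strand): taaagagagTGACGGAGCgctttacga
Psmc6 (chr14:45329588-45329614, minus strand): agcaatgccTGACTTAGCtactggctg
Psmd12 (chr11:107479278-107479298, minus strand): gggcaaatgTGACACAGCaga
Psmd9 (chr5:123228150-123228176, plus strand): tctagccggTGACCCCGCccacttcca
Psme4 (chr11:30771759-30771785, minus strand): ctcttctggTGACGCTGCagccgcagc

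The core of the interferon-stimulated response element, searched on both strands as GAAA, any 2 bases and GAAA again, was in 5 of the 41 genes (12.2%), against 3.94% of protein-coding genes and 3.47% of genes with a promoter peak. The 5 sites are shown with the match in capitals. They include Psme1, a subunit of the activator known to be induced by interferon. Psmb8, Psmb9, Psmb10 and Psme2, also known to be induced by interferon, had windows but no match.
Psme1 (chr14:55578494-55578521, minus strand): gcgggaaggGAAAGCGAAAgcacagctc
Psmb3 (chr11:97703262-97703289, minus strand): tggaaagcgGAAAGTGAAAagtcactgt
Psmg4 (chr13:34162970-34162997, plus strand): cgcgcatctGAAAGTGAAAgagcgttcc
Psmd4 (chr3:95042676-95042703, plus strand): ggcgccacaGAAATGGAAAggttggtta
Psmd9 (chr5:123228022-123228049, plus strand): ggacagaatGAAAAAGAAAggaatgaac

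All 6 antioxidant and all 5 interferon matches lay inside peaks given to the same genes. The CCAAT box was found in 14 of the 41 genes (34.1%, against 42.3% of protein-coding genes) and the GC box, GGGCGG, in 23 (56.1%, against 49.2% of protein-coding genes and 67.0% of genes with a promoter peak), both searched on both strands. The MEF2 consensus was found in 0 of the 41 windows, and in 3.27% of protein-coding genes. These matches describe letters in a window, and the GC box and CCAAT box may overlap the others.

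Of the 157 tested proteasome peaks, 3 rose and 1 fell in KO (2.55%; edgeR quasi-likelihood test, adjusted p below 0.05). Over all 73896 tested peaks, 7.01% passed, 2.77% higher and 4.23% lower. More peaks were higher than lower with the authors' factors (1620 against 752), in the authors' deposited table (1622 against 579) and without WT replicate 4 (2212 against 1409). None of the 4 was the promoter peak of its gene. The promoter peak is the peak nearest the start site within 3 kb, and 46 of the 47 genes had one. Of these 46 promoter peaks, 0 passed the test in edgeR, DESeq2 or limma-voom, and 0 had an unadjusted p below 0.05 in edgeR. Over the promoter peaks of every gene, 1.59% passed. Of the 111 other proteasome peaks, 4 passed (3.60%), against 8.15% of all peaks that were not the promoter peak of a gene.

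Each library held between 7608514 and 12061822 counts in peaks. Chi-square per degree of freedom between replicates was 4.04 to 7.36, above the value of counting error alone. All 10 muscle fibre marker genes had a promoter peak, whose summed level was 841 to 1332 CPM (counts per 1000000) in WT and 990 to 1074 in KO, and none passed. Of 10 leukocyte genes 2 had a tested promoter peak, with a sum of 9.57 to 12.4 CPM in WT and 10.2 to 10.7 in KO. Of 35 marker genes of leukocytes and other non-fibre cells 21 had one, and 1 passed. That was Cldn5, a tight junction gene of endothelium, at a log2 fold change of 0.71 (adjusted p 0.00594 by edgeR). The other endothelial markers with a promoter peak did not pass: Kdr at 0.19, Cdh5 at -0.26 and Tek at -0.28. The Prr14 promoter peak had 62.3, 66.5 and 57.1 CPM in WT and 51.2, 59.7 and 70.7 CPM in KO. This does not check the deletion, whose position is not known here. In bulk muscle, fewer nuclei of a type and less open chromatin per nucleus cannot be told apart.

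The promoter peaks were among the stronger ones. Their median level was 23.0 CPM per kb of peak over all libraries, against 16.4 for the promoter peaks of every gene, and 32 of 46 lay above that median. In WT, Psme2 (activator) had the highest level per length, 54.6 CPM per kb, in a peak that also covers the start of Rnf31. Psmb3, a structural beta subunit, followed with 44.0 CPM per kb. The lowest was Psmb11, the thymus-specific beta subunit, with 6.73 CPM per kb. The plot of promoter levels by gene shows that this range between genes far exceeded any difference between KO and WT.

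**Figure D1:**
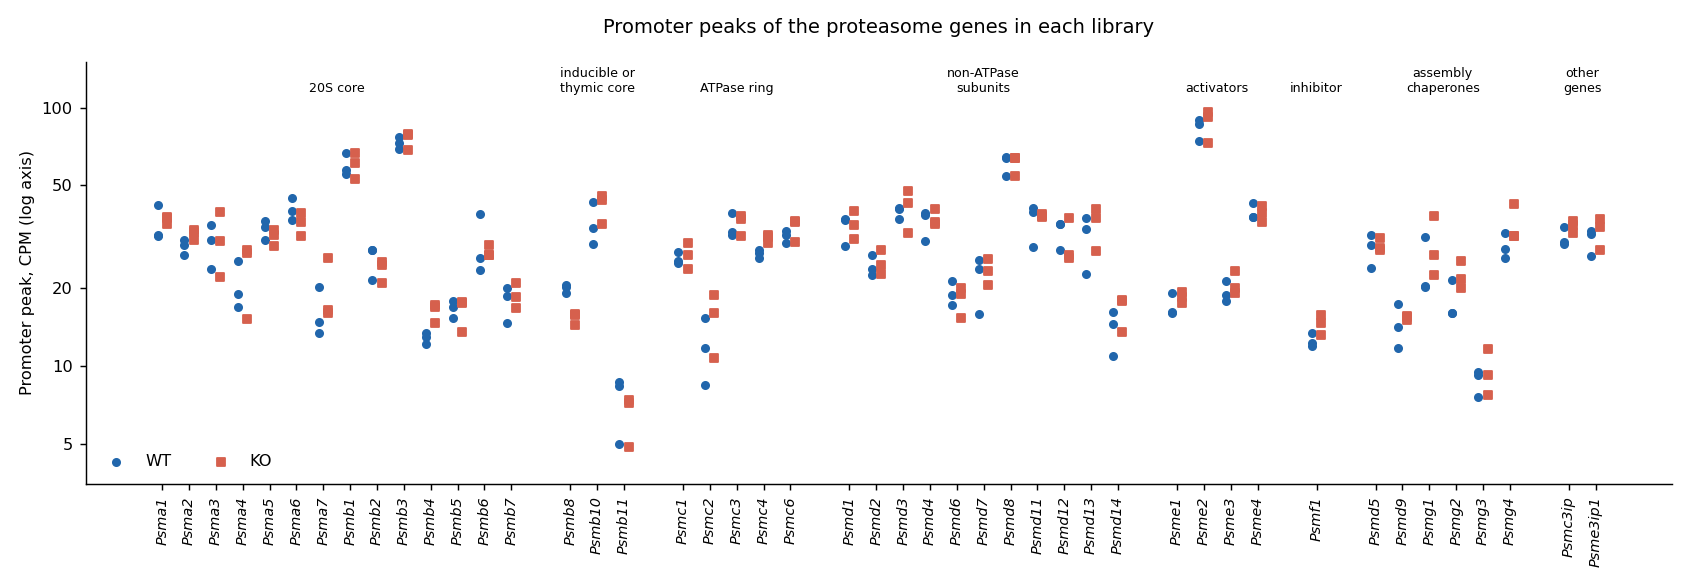
Level of each gene's promoter peak in every library, in CPM on a log axis, for 3 WT libraries (circles) and 3 KO libraries (squares), grouped by role. Levels differ widely between genes, from Psmb11 to Psme2, while the libraries of both groups overlap in all but Psmb4, Psmb8 and Psmc4.

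In the constitutive 20S core, all 14 genes had a promoter peak and none passed, with a median log2 fold change (KO over WT) of 0.04. The 7 alpha genes had a median of 0.05 and the 7 beta genes 0.01. Psmb5 encodes the subunit with chymotrypsin-like activity, the target of bortezomib. Its promoter peak (chr14:54617313-54618441) had 16.9, 15.4 and 17.8 CPM in WT and 17.6, 13.6 and 17.7 CPM in KO. The groups overlapped, with KO replicate 5 the lowest, and the log2 fold change was -0.04 (SE 0.21, adjusted p 0.966). Psmb6, with the caspase-like site, had 26.2, 38.8 and 23.4 CPM in WT and 29.5, 26.8 and 26.8 CPM in KO. WT replicate 4 stood above the other 5 libraries, and the log2 fold change was -0.10 (SE 0.19). Psmb7, with the trypsin-like site, had 18.6, 19.97 and 14.6 CPM in WT and 16.8, 18.5 and 21.0 CPM in KO, which overlapped (log2 fold change 0.08, SE 0.20).

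The highest log2 fold changes of the core were those of Psmb4, Psma7, Psmb10 and Psma4, and the lowest those of Psmb8, Psma6, Psmb11 and Psmb2. Psmb4, a structural beta subunit, had 13.4, 12.1 and 12.9 CPM in WT and 14.6, 17.2 and 16.8 CPM in KO. All KO libraries lay above all WT libraries, but the log2 fold change of 0.34 (SE 0.21) did not pass (adjusted p 0.440). Psma7, an alpha subunit, had a log2 fold change of 0.27, with KO replicate 7 at 26.1 CPM and the other 5 libraries between 13.4 and 20.3 CPM. Psma4, also of the alpha ring, had 0.21, with WT from 16.8 to 25.4 CPM and KO from 15.3 to 28.0 CPM. Psma6 had -0.18, with WT from 36.7 to 44.5 CPM and KO from 31.8 to 39.2 CPM. Psmb2, a structural beta subunit, had -0.13 and overlapping groups.

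Some core subunits replace their constitutive partners, on interferon to form the immunoproteasome (Psmb8, Psmb9, Psmb10) or in thymus cortex (Psmb11). Psmb8 had the lowest log2 fold change and the smallest adjusted p of all 46 promoter peaks. Its peak (chr17:34197400-34198656) had 20.6, 20.2 and 19.1 CPM in WT and 15.7, 15.9 and 14.5 CPM in KO. All KO libraries lay below all WT libraries, and the log2 fold change of -0.38 (SE 0.20, 95% interval -0.78 to 0.02) did not pass (adjusted p 0.337). Psmb10 had the opposite sign. It had 34.3, 43.0 and 29.7 CPM in WT and 45.6, 43.7 and 35.3 CPM in KO, which overlapped (log2 fold change 0.22, SE 0.18), in a peak that stops short of the RefSeq start of the gene. Psmb11 had 8.33, 4.97 and 8.69 CPM in WT and 7.21, 4.85 and 7.42 CPM in KO, with replicate 4 lowest in WT and replicate 5 lowest in KO (log2 fold change -0.17, SE 0.26).

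The start of Psmb9 lay in a peak that the deposited table gives to Tap1 (chr17:34186803-34188135), its neighbour on the opposite strand, which encodes a peptide transporter of antigen presentation. This peak had 31.2, 28.1 and 34.6 CPM in WT and 25.2, 32.1 and 33.0 CPM in KO, which overlapped (log2 fold change -0.05, adjusted p 0.945). The peak that bears the name Psmb9 (chr17:34170677-34171131) has a deposited distance of 12827 bases, measured to a start other than this RefSeq one, and a log2 fold change of -0.02. The starts of Psmc5 (ATPase) and Psmd10 (assembly chaperone) likewise lay in peaks given to Ftsj3 and Atg4a, at log2 fold changes of -0.05 and -0.06, neither passing. Psma8, the testis alpha subunit, and Psme2b had no peak under their names. In 5 promoter peaks of proteasome genes the start of another protein-coding gene also lay: Psma2 with Mrpl32, Psma7 with Ss18l1, Psmb1 with Tbp, Psmd13 with Sirt3 and Psme2 with Rnf31. Their counts cannot be divided between the 2 genes.

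In the regulatory particle, 16 genes had a promoter peak and none passed, with a median log2 fold change of 0.06. The 5 ATPase genes had a median of 0.10 and the 11 non-ATPase genes 0.06. When grouped by gene name alone, Psma and Psmb genes had a median of 0.03 (17 promoter peaks) and Psmc and Psmd genes 0.06 (18 promoter peaks). Psmc2, an ATPase, had the highest value of all promoter peaks, 0.35 (SE 0.22, adjusted p 0.427). It had 15.3, 11.8 and 8.42 CPM in WT and 10.8, 16.03 and 18.8 CPM in KO, so the groups overlapped, with WT replicate 8 lowest and KO replicate 7 highest. Psmc4, another ATPase, differed less but without overlap: 27.4, 28.2 and 26.2 CPM in WT against 32.0, 31.5 and 29.9 CPM in KO (log2 fold change 0.19, SE 0.19, adjusted p 0.700).

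Psmd14, the deubiquitinase of the lid, had 16.2, 14.5 and 10.9 CPM in WT and 13.6, 17.9 and 18.03 CPM in KO. The groups overlapped, with a log2 fold change of 0.25 (SE 0.21). Psmd13, a lid subunit, had 0.17, with WT replicate 8 at 22.6 CPM and the other WT libraries at 33.8 and 37.4 CPM. Psmd4, a ubiquitin receptor, had 38.4, 38.9 and 30.4 CPM in WT and 35.5, 36.2 and 40.6 CPM in KO (0.06). Psmd11, a lid subunit, had 41.0, 39.3 and 28.8 CPM in WT and 38.2, 38.8 and 37.7 CPM in KO (0.07). In both, WT replicate 8 was the lowest library and the groups overlapped. At the lower end stood Psmd12 (-0.12), Psmd6 (-0.08), Psmd8 (-0.00) and the ATPase gene Psmc3 (0.04), all with overlapping groups.

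The 4 activator genes had a median log2 fold change of 0.08. Psme1 and Psme2, which form the interferon-inducible PA28 ring, had 0.10 and 0.06. Psme1 had 19.1, 16.1 and 16.2 CPM in WT and 17.5, 19.3 and 18.5 CPM in KO. Psme2 had 89.8, 86.5 and 74.0 CPM in WT and 73.1, 92.1 and 96.3 CPM in KO. Both groups overlapped in both genes. Psme3, the nuclear PA28 gamma, had 0.11, and Psme4, the PA200 activator, -0.01, again with overlap. Psmf1, an inhibitor of the core, had 12.2, 13.4 and 11.98 CPM in WT and 14.6, 15.8 and 13.2 CPM in KO, with KO replicate 7 just below WT replicate 4 (log2 fold change 0.21, SE 0.22). The 6 assembly chaperone genes had a median of 0.19 and none passed: all 6 values were positive, from 0.04 in Psmd5 to 0.32 in Psmg2, each with overlapping groups. The values of all 5 ATPase genes were positive too, and so were 64.1% of the promoter peaks of every gene.

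Over all 46 promoter peaks, the median log2 fold change was 0.07, and over the promoter peaks of every gene it was 0.06. With 1 library left out it ran from 0.031 (without KO replicate 7) to 0.16 (without WT replicate 4, where every gene had 0.09), and with the authors' factors both were 0.27. Of the 46, 35 were positive (76.1%), against 64.1% of all promoter peaks. Without Psmc3ip and Psme3ip1, which match by spelling only, 33 of 44 were positive (75%) and the median was 0.06. The promoter peak of Psme3ip1 covers no RefSeq start of that gene. The median size of the difference, regardless of sign, was 0.10 over the 46 and 0.14 over every gene. Groups did not overlap in 3 of 46 (6.52%), namely Psmb4, Psmc4 and Psmb8, against 10.6% of all promoter peaks. The standard errors ran from 0.17 to 0.26, and the 95% intervals of the 46 reached from -0.78 to 0.78. By this test, differences of the size seen at single promoters were not detectable with 3 libraries a group. These standard errors did not follow the spread of each gene's own libraries. Psmb8 (SD 0.78 CPM in WT and 0.79 in KO) and Psma7 (SD 3.62 CPM in WT and 5.70 in KO) both had an SE of 0.20. Promoters with the antioxidant response element had a median of -0.02 (6) and those without it 0.07 (31).

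The libraries within a group differed more than the groups did. The median log2 deviation of the 46 promoter peaks from their mean over the 6 libraries was 0.06 in WT replicate 3, 0.06 in replicate 4 and -0.16 in replicate 8. In KO it was -0.11 in replicate 4, 0.07 in replicate 5 and 0.11 in replicate 7. Over the promoter peaks of every gene it was 0.08, -0.04 and -0.13 in WT and -0.09, 0.03 and 0.16 in KO. WT replicate 8 and KO replicate 4 were thus low, and KO replicate 7 high, at promoters of both sets, while WT replicate 4 was above the mean at proteasome promoters and below it over every gene. The part of these library differences in single genes was not tested.

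**Figure D2:**
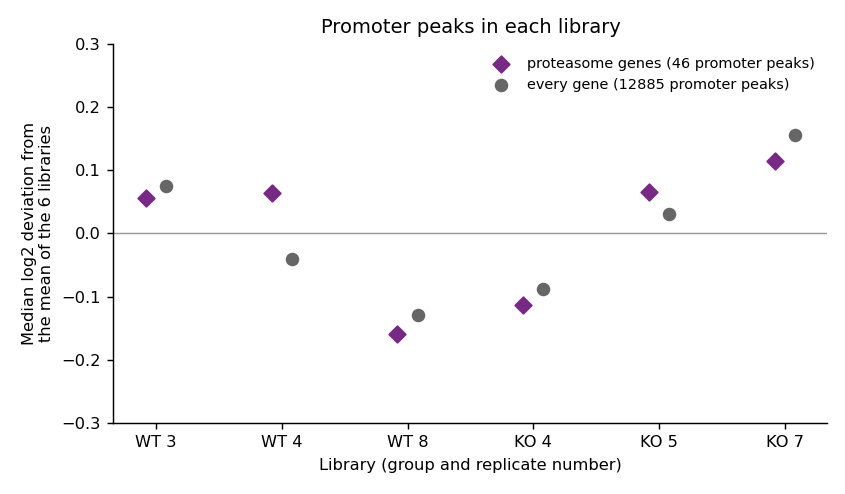
Median log2 deviation of promoter peaks from their mean over the 6 libraries, for each library, over the 46 proteasome promoter peaks (diamonds) and the promoter peaks of every gene (circles). WT replicate 8 and KO replicate 4 lie below 0 in both sets, and KO replicate 7 lies highest in both.

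Away from promoters, 1 peak of Psma3, an alpha ring gene, fell in KO. It covers 2147 bases (chr12:70983897-70986043) inside the RefSeq span of the gene, between 9274 and 11420 bases past its RefSeq start. The deposited table classes it as a promoter within 1 kb, because another annotated transcript begins near its edge. The peak had 17.5, 32.3 and 22.9 CPM in WT and 7.74, 8.80 and 10.6 CPM in KO, a mean of 24.2 ± 7.49 against 9.05 ± 1.46 CPM (SD, n = 3 each). All KO libraries lay below all WT libraries, with WT replicate 4 the highest, and the log2 fold change was -1.42 (SE 0.21, adjusted p 7.03e-09 by edgeR). The promoter peak of the same gene (chr12:70974285-70975582) had 35.1, 30.7 and 23.8 CPM in WT and 22.1, 30.4 and 39.4 CPM in KO, with a log2 fold change of 0.03 (adjusted p 0.965). Within 100 kb on each side, 13 peaks were tested and the fallen peak was the 1 that passed. The promoter peaks of the neighbours Actr10 and Arid4a had log2 fold changes of 0.42 (adjusted p 0.233) and 0.27 (adjusted p 0.495). Of the 9 other tested peaks there that were not promoter peaks, 8 had negative values, down to -0.78 in an intron of Arid4a (adjusted p 0.121 by edgeR). Such peaks were also often negative around the passing peaks that rose, described below: 8 of 10 near Psmb1, 6 of 10 near Psmg2 and 3 of 5 near Psma1. Over all peaks that were not promoter peaks, 45.5% were positive.

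An intronic peak of the assembly chaperone gene Psmg2 rose (chr18:67649975-67651778, 9278 bases past the start). It had 9.16, 10.3 and 9.08 CPM in WT and 21.7, 21.8 and 11.99 CPM in KO. All KO libraries lay above WT, with KO replicate 7 nearer to WT than the other 2, and the log2 fold change was 0.96 (SE 0.22, adjusted p 5.49e-04 by edgeR). The promoter peak of Psmg2 had a log2 fold change of 0.32 (adjusted p 0.441). A second peak within 100 kb also passed: an exonic peak of Ptpn2, a tyrosine phosphatase gene, 45074 bases away, fell by 0.79 on the log2 scale (adjusted p 0.0317).

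The other 2 peaks that rose were weak. One was given to Psma1, although its deposited distance to the start is -41452 bases (chr7:114317362-114317778) and inside the RefSeq long non-coding gene 4933406I18Rik. It had 1.75, 1.56 and 3.29 CPM in WT and 4.70, 5.75 and 4.76 CPM in KO, without overlap (log2 fold change 1.24, SE 0.36, adjusted p 0.0146 by edgeR). Leaving out WT replicate 3 took the adjusted p to 0.0899, leaving out WT replicate 4 to 0.0927 and leaving out KO replicate 5 to 0.133. The Psma1 promoter peak had 0.05 (adjusted p 0.939).

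The last was in Psmb1, a structural beta subunit gene, 5385 bases past the start (chr17:15492635-15493190), in the deposited class of 5′ untranslated regions. It had 3.70, 2.76 and 3.29 CPM in WT and 4.60, 7.73 and 7.32 CPM in KO, without overlap, KO replicate 4 being nearest to WT (log2 fold change 1.02, SE 0.31, adjusted p 0.0175 by edgeR). It did not pass when WT replicate 4 (adjusted p 0.0778), KO replicate 5 (0.179) or KO replicate 7 (0.0966) was left out. The promoter peak of Psmb1, shared with Tbp, had 57.1, 67.0 and 55.3 CPM in WT and 52.9, 66.9 and 61.1 CPM in KO (log2 fold change 0.01, adjusted p 0.988).

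**Figure D3:**
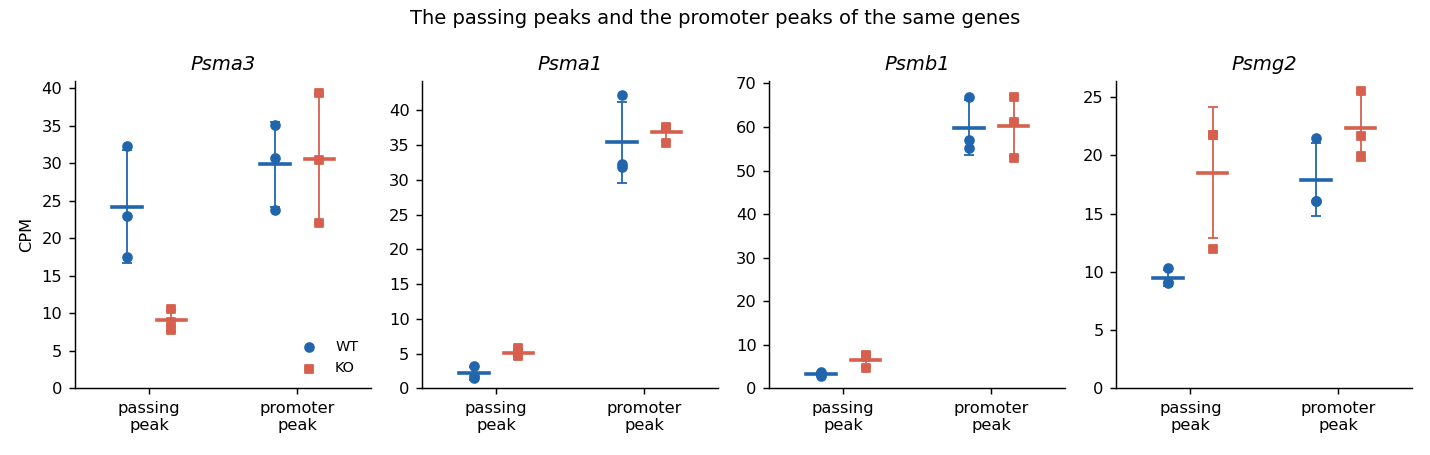
Level in CPM of the 4 peaks that passed and of the promoter peak of the same gene, in each WT library (circles) and KO library (squares), with the mean and the SD of 3 libraries. The passing peaks of Psma3, Psma1, Psmb1 and Psmg2 do not overlap between groups, while the promoter peaks of all 4 genes do. The passing peaks were picked by the test on these same libraries. Of all peaks that were not promoter peaks, 22.4% do not overlap.

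Nearest to passing, and named after their values were seen, were 3 further peaks of core genes. An intronic peak of Psmb7 (chr2:38600577-38601687) had 14.4, 20.3 and 14.1 CPM in WT and 11.3, 10.03 and 11.2 CPM in KO, without overlap (log2 fold change -0.59, adjusted p 0.0724). An exonic peak of Psmb1 (chr17:15489333-15491153), next to the one that rose, had 8.64, 11.9 and 10.004 CPM in WT and 14.3, 17.8 and 13.8 CPM in KO (0.59, adjusted p 0.0834). A peak at a distance of -25516 bases from Psma1 (chr7:114301491-114301777) had 1.85, 1.01 and 1.71 CPM in WT and 3.55, 4.27 and 2.75 CPM in KO (1.22, adjusted p 0.0849). The last passed in the authors' deposited table (adjusted p 0.0435), and the Psmb1 peak passed when libraries were scaled to total counts (adjusted p 0.0444).

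Other peaks were spread unevenly over genes. Psmb7 had 14 peaks and 18 genes had 1. The non-promoter peaks of the constitutive core had a median log2 fold change of -0.15 (43 peaks, 3 passing), those of the regulatory particle -0.03 (37, none passing at an adjusted p below 0.05), those of the activators -0.00 (7, none passing) and those of the chaperones 0.25 (18, 1 passing). Over all peaks that were not promoter peaks the median was -0.05 and 8.15% passed, against 6.98% in the core and 5.56% in the chaperones. Peaks of 1 gene share a locus and are not replicates of each other. Many of these peaks lay outside the gene they are named after. Of the 111 tested peaks, 42 overlapped the named gene in RefSeq, 28 overlapped only another gene and 41 overlapped no gene. Among the chaperones, most non-promoter peaks given to Psmg4 lay inside another gene, Slc22a23.

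**Figure D4:**
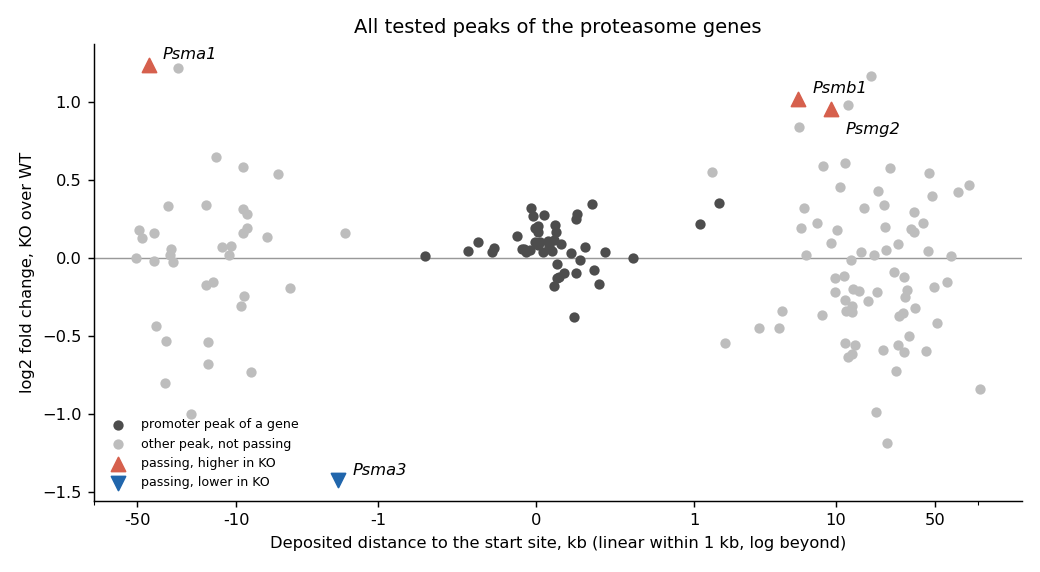
Log2 fold change of KO over WT against the deposited distance to the start site in kb (linear within 1 kb, log beyond) for all 157 tested peaks. Promoter peaks (dark) lie between -0.38 and 0.35, other peaks (grey) spread more widely, and the 4 passing peaks are marked with triangles. The other peaks were weaker and less precisely measured. Their WT median was 4.95 CPM and their median SE 0.31, against 28.7 CPM and 0.19 for the promoter peaks.

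Genes that act with the proteasome were read from the same fit. Of 50 such genes 45 had a promoter peak, and 0 of these passed in edgeR, with 1 at an unadjusted p below 0.05. Over the promoter peaks of every gene, 1.59% passed, and 811 of 12885 had an unadjusted p below 0.05 in edgeR. The median log2 fold change over every gene was 0.06, beside which the medians below are to be read. Genes of the factors that transcribe the subunits had a median of 0.11 (10 genes), with Nfe2l1 at 0.08 and its relative Nfe2l2 at 0.11. Partners of the particle had 0.14 (11 genes), with the assembly factor Pomp at -0.02. Ubiquitin and shuttle genes had 0.16 (14 genes). Antigen presentation genes had -0.03 (10 genes), Tap1 included, whose peak is the one over the Psmb9 start.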

How the data were processed

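ATAC-seq counts of 3 KO and 3 WT libraries were analysed from 1 table. Per the submitters' processing notes, the tools were BWA, Trimmomatic, MACS2, bedtools, deepTools and DESeq2 1.6.3, with the build GRCm38 and no role stated. The sources used here do not give the counting tool, read shift or duplicate handling. The authors deposited whole-number counts per peak and library for 1 common peak list. They also deposited a normalized signal (the count divided by 1 factor per library), a log2 fold change, raw and adjusted p-values, and a score per peak. Feature class, gene and distance are those of the deposited table.

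Counts were tested with edgeR 4.0.16 in R 4.3.3 (quasi-likelihood test, two-sided, TMM scaling, filterByExpr with minimum count 10 and minimum total 15), and p-values were adjusted by Benjamini-Hochberg over all 73896 peaks tested. CPM are counts per 1000000 scaled with TMM. The SE of a fold change was taken from the F value of the test, and 95% intervals are normal ones from it. The procedure was tested on simulated data. Peaks named are those that passed, the promoter peaks of catalytic, inducible, activator and a few other genes, and the 4 highest and 4 lowest promoters of core and regulatory particle. The members and lists were chosen with earlier results of these data known. Alternatives were DESeq2 1.42.0, limma-voom (limma 3.58.1), other scalings, no filter, the authors' table and leaving out each library. Sequences come from RefSeq (GRCm38.p6). The values of 1 gene that acts with the proteasome are not reported here.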

Additional observations from a re-analysis of the deposited data

How the results depend on the processing

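Across 13 other settings, the promoter peaks of proteasome genes gave 0 calls in either direction, with 0 to 4 at an unadjusted p below 0.05, and the fall at Psma3 and the rise at Psmg2 passed in each. The proteasome peaks that rose numbered 3, or 4 with total counts, the authors' factors and the authors' deposited table. They numbered 1 to 3 when 1 library was left out (1 without KO replicate 5), and 1 fell throughout. Without WT replicate 4, 2 rose although the peaks of Psma1 and Psmb1 lost the call, so a further peak passed in that setting. Of 390 comparisons of 30 named peaks, 384 kept their side of the threshold and 6 lost the call, those of Psma1 and Psmb1 given above. Values that did not pass changed sign in 42, most often Psme4 and Psmd8, which are near 0. Of these changes, 9 came with the authors' factors and 9 with the authors' deposited values. They were not limited to values near 0. In the deposited values, the low promoters of Psma6 (0.02), Psmb11 (0.05), Psmb2 (0.09), Psmd12 (0.07) and Psmd6 (0.12) were positive. Psmb8 stayed negative there (-0.18). The authors' factors, whose making is not stated, ran from 0.977 to 1.04, against 0.762 to 1.21 for median-ratio factors of the same counts, so they scale little for depth. They moved the median of all peaks from -0.01 to 0.19 and of all promoters to 0.27. With them the constitutive core promoters had a median of 0.24 and the regulatory particle 0.25. The core median was -0.091 over all peaks of these genes, and 0.019 to 0.16 when 1 library was left out (0.16 without WT replicate 4); the regulatory particle then had 0.02 to 0.15. Over all peaks, the number lower was 752 with the authors' factors and 579 in the authors' deposited table, and ran from 1409 (without WT replicate 4) to 3111 when 1 library was left out; leaving out KO replicate 5 gave 1511, and leaving out KO replicate 7 gave 2082. The number higher then ran from 959 (without KO replicate 5) to 2248, and was 1279 when WT replicate 3 and 1209 when KO replicate 4 was left out. The share higher among calls rose from 39.6% to 68.3% with the authors' factors, to 73.7% in the authors' deposited table and to 48.3% with total counts; leaving out WT replicate 4 gave 61.1%, and leaving out KO replicate 7 gave 49.8%. The cause was not tested. No paired analysis was possible because the groups share only 1 replicate number.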
